A study of Mus musculus with 24 samples.

Results

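Serum amyloid A 3 (Saa3), lipocalin 2 (Lcn2), haptoglobin (Hp), pentraxin 3 (Ptx3) and the calcium-binding proteins S100a8 and S100a9 are acute-phase and alarm proteins that can be made in fat tissue itself. These 6 genes were taken by name, each from the 1 probe set annotated to it, out of 19938 named genes measured. The RNA came from epididymal white fat, a visceral depot, of 24 male wild-type C57Bl/6 mice. Mice entered the diets at 11 weeks of age and ate them for 11 weeks. Each diet held 45% of its energy as fat, and every mouse was fasted for 4 h before it was killed. There were 4 groups of 6 mice, namely lard-fed conventional, lard-fed germ-free, fish oil-fed conventional and fish oil-fed germ-free mice, the fish oil being menhaden oil. No group ate a low-fat diet. RNA of each mouse was hybridised to its own one-colour Affymetrix array. The p-values therefore rest on differences among mice, and precision is limited by the number of arrays. Bacterial status cannot be told apart from the colony or housing of the mice.

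In the acute-phase response, cytokines such as interleukin 6, interleukin 1 and tumour necrosis factor act through STAT3, C/EBP and NF-kappaB factors to raise secreted defence proteins. The liver makes most of these for the blood, but Saa3 is made mainly outside the liver, by macrophages and adipocytes among others, and adipocytes also release Lcn2 and Hp. S100a8 and S100a9 pair to form calprotectin, which is abundant in neutrophils and monocytes.

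RefSeq sequences of GRCm38.p6 around the transcription start were at hand for 5 of the 6 genes, and the 4 below are shown because their genes carried the largest changes. Each runs 5′ to 3′ on the gene's strand, from 250 bases before the start to 50 bases from it on. Capitals mark matches on either strand to the letters searched, which were GGG and CC with any 5 bases between for NF-kappaB, TTGC and AA with any 2 bases between for C/EBP, and TATAAA for a TATA box. The regions are chr7:46715627-46715926 on the minus strand for Saa3, chr2:32387690-32387989 on the minus strand for Lcn2, chr3:90668821-90669120 on the plus strand for S100a8 and chr3:90695672-90695971 on the minus strand for S100a9.
Saa3: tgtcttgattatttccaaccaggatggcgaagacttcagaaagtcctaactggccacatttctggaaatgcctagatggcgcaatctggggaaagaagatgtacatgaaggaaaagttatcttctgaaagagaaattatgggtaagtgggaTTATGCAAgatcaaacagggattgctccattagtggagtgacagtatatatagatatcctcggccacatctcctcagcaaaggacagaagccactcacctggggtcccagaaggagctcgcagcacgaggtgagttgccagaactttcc
Lcn2: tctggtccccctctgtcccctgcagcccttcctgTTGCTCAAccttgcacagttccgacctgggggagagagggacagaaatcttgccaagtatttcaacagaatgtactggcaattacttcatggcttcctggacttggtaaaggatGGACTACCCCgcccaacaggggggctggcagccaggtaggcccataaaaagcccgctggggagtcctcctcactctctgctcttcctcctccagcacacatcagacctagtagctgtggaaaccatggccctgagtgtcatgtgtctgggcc
S100a8: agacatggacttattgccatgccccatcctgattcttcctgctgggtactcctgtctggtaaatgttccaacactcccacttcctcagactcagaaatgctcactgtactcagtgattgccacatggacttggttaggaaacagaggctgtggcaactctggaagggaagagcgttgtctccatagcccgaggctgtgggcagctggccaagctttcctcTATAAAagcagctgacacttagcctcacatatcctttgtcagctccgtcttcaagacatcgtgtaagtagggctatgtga
S100a9: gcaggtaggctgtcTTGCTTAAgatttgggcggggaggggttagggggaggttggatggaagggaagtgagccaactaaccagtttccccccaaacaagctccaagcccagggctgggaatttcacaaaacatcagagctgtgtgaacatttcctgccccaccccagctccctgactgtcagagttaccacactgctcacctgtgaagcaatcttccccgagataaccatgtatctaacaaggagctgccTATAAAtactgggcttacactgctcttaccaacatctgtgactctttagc
The Saa3 window held a C/EBP match that began 99 bases before the start. The Lcn2 window held a C/EBP match 216 bases before the start and an NF-kappaB match 102 bases before it. A match to the TATA letters began 30 bases before the start of S100a8. The S100a9 window held a C/EBP match 236 bases before the start and the TATA letters at the start base itself. Whether either match acts as a TATA box was not tested. The Ptx3 window, not printed, held a C/EBP match 57 bases before the start and a pair of overlapping NF-kappaB matches at the start. A search for STAT letters, TTC and GAA with any 3 bases between, gave no match in these 5 windows. Such matches are common: of 32851 mouse promoter windows of this length, 50.8% held the NF-kappaB letters, 10.8% the C/EBP letters, 8.30% the STAT letters and 13.6% the TATA letters. S100a8 and S100a9 are neighbouring genes on chromosome 3, and Saa3 lies beside Saa4, Saa1 and Saa2 on chromosome 7.

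The samples carried the genes of fat cells at high levels, with adipocyte marker means (12 of 13 genes measured) from 12.33 to 13.05 log2. Some mice stood apart on markers of other cells. Lard-fed conventional mice 5 and 6 had macrophage marker means (15 genes) of 11.20 and 11.25 log2, against 10.24 to 10.57 in mice 1 to 4 of that group. Lard-fed germ-free mouse 4 had an intestinal epithelium marker mean (19 of 20 genes) of 9.41 log2, and mice 5 and 2 had 6.98 and 6.87, while all other mice lay from 6.14 to 6.79. Liver marker means (23 of 25 genes) ranged over 8.17 to 9.40 log2 when germ-free mice ate fish oil, against 6.45 to 8.15 for the remaining 3 groups. For the main changes, values without these lard-fed mice are given below. Leaving out lard-fed germ-free mice 2, 4 and 5 left 3 mice in that group. Calls over all genes for status with lard then went from 3240 to 177. The part of the smaller group in calls lost this way was not tested. In whole tissue, fewer cells of a type and less RNA per cell cannot be told apart.

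Saa3, Lcn2, Hp and S100a8 were highest in conventional mice fed lard. Lard-fed germ-free mice and fish oil-fed conventional mice both had lower levels of these 4 genes. S100a9 followed another pattern: it was lower with lard than with fish oil whether or not the mice carried bacteria. Ptx3 was called in no single comparison of groups. Of the 6 genes, 4 were higher and 1 was lower with lard than with fish oil in conventional mice (limma, adjusted p under 0.05 over all genes), where 31.0% of all genes were called, 15.4% higher and 15.6% lower. In germ-free mice the same diet comparison called 1 gene higher and 1 lower, against 47.5% of all genes, 20.4% higher and 27.1% lower. Among lard-fed mice 4 were higher in conventional than in germ-free mice and 0 were lower, against 16.3% of all genes called, 8.77% higher and 7.48% lower. Among fish oil-fed mice limma called 0 of the 6, with 1 at an unadjusted p under 0.05, where 12.4% of all genes were called, 7.15% higher and 5.21% lower. The interaction, which is the conventional minus germ-free difference with lard minus that with fish oil, called 3 of the 6, all positive, against 7.20% of all genes, 2.81% positive and 4.38% negative.

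The median log2 change of the 6 genes for lard over fish oil was 0.90 in conventional mice (median of all genes -0.04) and 0.04 in germ-free mice (all genes -0.08). For conventional over germ-free it was 0.69 with lard (all genes 0.02) and 0.09 with fish oil (all genes -0.01). The median interaction was 0.91, against 0.04 over all genes. The values of the 2 groups compared did not overlap for 5 of the 6 genes between diets in conventional mice (14.6% of all genes) and for 1 of the 6 in germ-free mice (24.5%). Between conventional and germ-free mice the groups were apart for 3 of the 6 genes with lard (4.15% of all genes) and for 0 of the 6 with fish oil (7.03%). Comparisons that use the same group share its mice and are not independent.

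**Figure D1:**
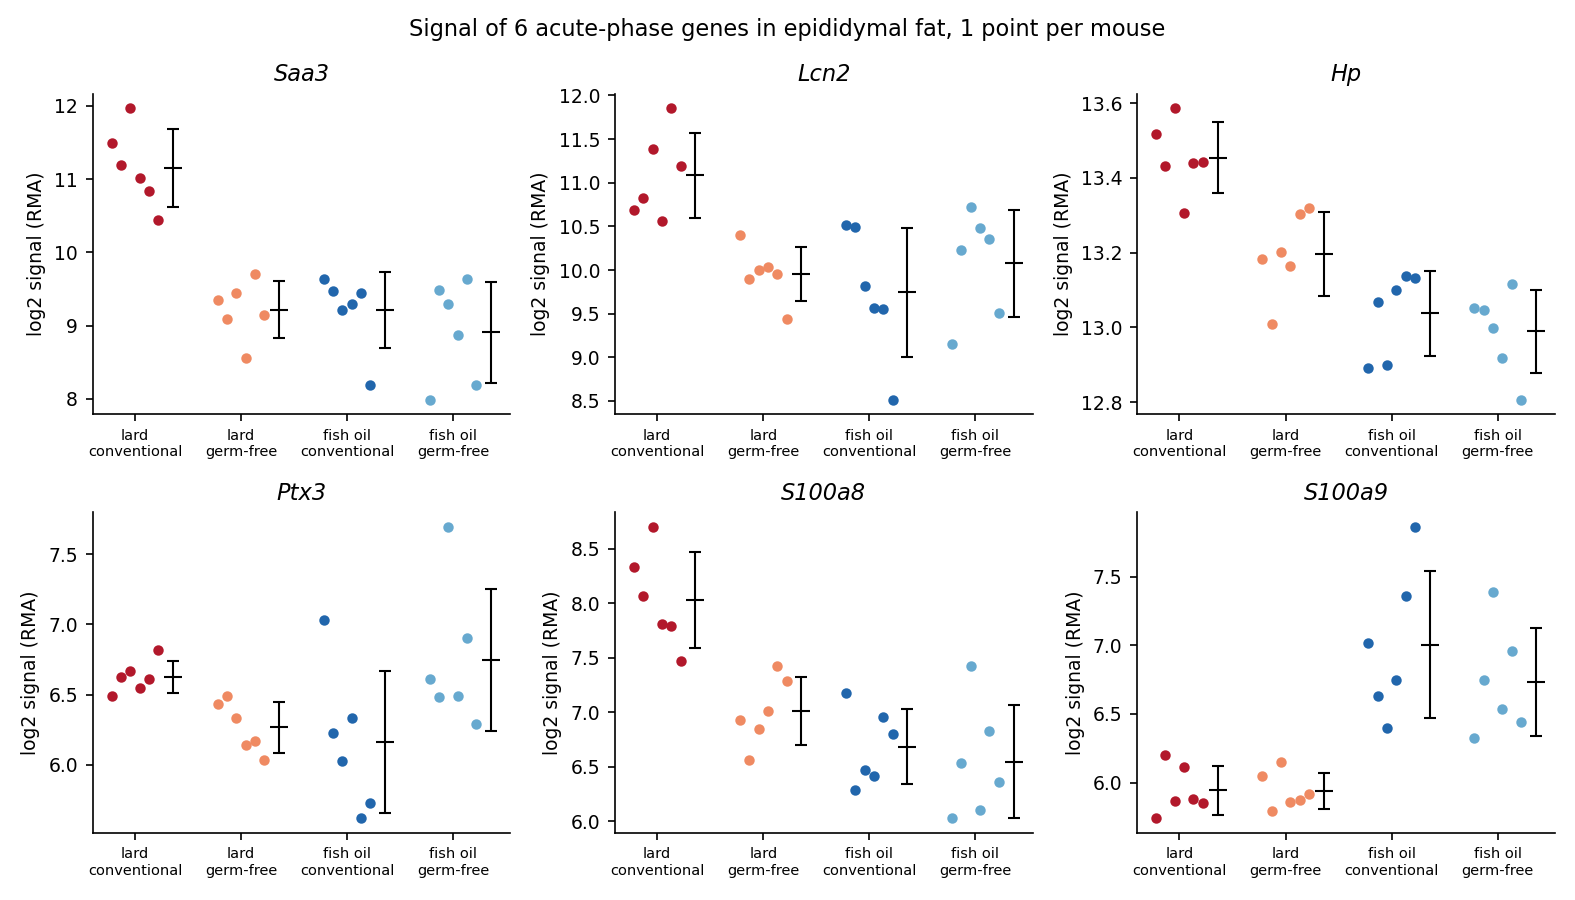
Log2 signal (y axis) of each of the 6 genes in each mouse (points), with group means and SDs, for lard-fed conventional, lard-fed germ-free, fish oil-fed conventional and fish oil-fed germ-free mice, 6 per group. Saa3 lies between 10.44 and 11.97 in lard-fed conventional mice and between 7.99 and 9.70 in all others, while S100a9 lies between 5.74 and 6.20 in both lard-fed groups.

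Saa3, a serum amyloid A that associates with lipoproteins and responds to bacterial products and cytokines, had its lowest, median and highest log2 signals at 10.44, 11.10 and 11.97 in lard-fed conventional mice. The same 3 values were 8.56, 9.24 and 9.70 in lard-fed germ-free mice, 8.19, 9.37 and 9.64 in fish oil-fed conventional mice, and 7.99, 9.08 and 9.64 in fish oil-fed germ-free mice. All 6 lard-fed conventional mice were above the other 18 mice, and the other 3 groups lay within one range. The lard over fish oil change in conventional mice was 1.95 ± 0.29 log2 (SE, 3.86-fold, 95% interval 2.57 to 5.79, limma adjusted p = 1.31e-05). With lard, conventional mice exceeded germ-free mice by 1.94 ± 0.29 (3.84-fold, limma adjusted p = 0.000281). The next steps down the order of group means, 0.01 from lard-fed germ-free to fish oil-fed conventional mice and 0.30 from there to fish oil-fed germ-free mice, were smaller than the SDs of 0.39 to 0.69 within these groups. The diet change in germ-free mice was 0.30 (95% interval -0.28 to 0.89, limma adjusted p = 0.38), and the status change with fish oil was 0.30 (-0.29 to 0.89, adjusted p = 0.557). The interaction of 1.64 ± 0.40 passed the test (limma adjusted p = 0.0149).

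Saa3 also bore on the mice that stood apart. Within the lard-fed conventional group, mice 5 and 6, with the highest macrophage markers, had the lowest Saa3 values, 10.83 and 10.44. Without them the diet change in conventional mice was 2.21 log2 (limma adjusted p = 1.71e-05), the status change with lard 2.20 (1.26e-05) and the interaction 1.90 (0.0039). With lard-fed germ-free mice 2, 4 and 5 left out, the status change with lard was 1.85 (limma adjusted p = 0.020), and the interaction was 1.55 and no longer passed (adjusted p = 0.10).

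Lcn2, a siderophore-binding protein that keeps iron from bacteria, had lowest, median and highest log2 signals of 10.56, 11.01 and 11.86 in lard-fed conventional mice and of 9.44, 9.98 and 10.40 in lard-fed germ-free mice. The fish oil-fed conventional mice had 8.52, 9.69 and 10.52, and the fish oil-fed germ-free mice 9.16, 10.29 and 10.73. The lard-fed conventional mice lay above the lard-fed germ-free and the fish oil-fed conventional mice, but they overlapped with the fish oil-fed germ-free mice. The diet change in conventional mice was 1.34 ± 0.29 log2 (2.53-fold, 95% interval 1.66 to 3.85, limma adjusted p = 0.00101). With lard, conventional mice exceeded germ-free mice by 1.13 ± 0.29 (2.19-fold, limma adjusted p = 0.00966). The other 3 groups were 0.12 and 0.21 apart in the order of means, fish oil-fed germ-free, lard-fed germ-free and fish oil-fed conventional, within SDs of 0.31 to 0.74.

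In germ-free mice the Lcn2 diet change was -0.12 (95% interval -0.73 to 0.49, limma adjusted p = 0.745), and with fish oil the status change was -0.33 (-0.94 to 0.28, adjusted p = 0.52). The interaction of 1.46 ± 0.42 was past the threshold (limma adjusted p = 0.0343), but leaving out any of 11 of the 24 mice ended that call, with changes of 1.21 to 1.47 and limma adjusted p-values of 0.0512 to 0.0632. These were lard-fed conventional mice 3 and 5, lard-fed germ-free mice 2 and 5, fish oil-fed conventional mice 3, 4, 5 and 6, and fish oil-fed germ-free mice 3, 4 and 5. Without lard-fed conventional mice 5 and 6 it was 1.24 (limma adjusted p = 0.056), while the diet change was 1.12 (adjusted p = 0.0126) and the status change with lard 0.91 (adjusted p = 0.038). Of these mice, mouse 5 had the highest Lcn2 value in the study. With lard-fed germ-free mice 2, 4 and 5 left out, the status change with lard was 1.14 (limma adjusted p = 0.12) and the interaction 1.47 (adjusted p = 0.159), and neither passed.

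Hp, the plasma protein that binds free haemoglobin, showed small changes with little spread. Its lowest, median and highest log2 signals were 13.31, 13.44 and 13.59 in lard-fed conventional mice and 13.01, 13.19 and 13.32 in lard-fed germ-free mice. They were 12.89, 13.08 and 13.14 in fish oil-fed conventional mice and 12.81, 13.02 and 13.12 in fish oil-fed germ-free mice. The conventional mice were fully apart by diet, and lard-fed conventional and lard-fed germ-free mice overlapped only in their nearest values, 13.31 and 13.32. Lard over fish oil was 0.42 ± 0.07 log2 in conventional mice (1.33-fold, limma adjusted p = 3.07e-05) and 0.21 ± 0.07 in germ-free mice (1.15-fold, adjusted p = 0.0131). Conventional over germ-free was 0.26 ± 0.07 with lard (1.20-fold, limma adjusted p = 0.0084) and 0.05 with fish oil (95% interval -0.09 to 0.18, adjusted p = 0.705). The difference between these status changes was 0.21 ± 0.09 and did not pass (limma adjusted p = 0.181). Hp is also made by the liver. Its group mean was 12.99 in the fish oil-fed germ-free mice, whose liver markers were highest, and the part of liver RNA in the Hp levels was not tested. Without lard-fed conventional mice 5 and 6 the diet change of Hp was 0.42 (limma adjusted p = 0.00028) and the status change with lard 0.26 (adjusted p = 0.0118). With lard-fed germ-free mice 2, 4 and 5 left out, the status change of Hp with lard was 0.22 (limma adjusted p = 0.15).

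Ptx3, a long pentraxin made by myeloid, endothelial and stromal cells that binds microbes and complement C1q, had lowest, median and highest log2 signals of 6.49, 6.62 and 6.82 in lard-fed conventional mice and of 6.03, 6.25 and 6.49 in lard-fed germ-free mice. It had 5.62, 6.13 and 7.03 in fish oil-fed conventional mice and 6.29, 6.55 and 7.70 in fish oil-fed germ-free mice. Its mean signal was low, at the 30.6 percentile of all genes. The groups overlapped in each comparison, and the SD was 0.51 in both fish oil-fed groups, against 0.11 and 0.18 in lard-fed conventional and lard-fed germ-free mice. The diet change was 0.47 ± 0.20 in conventional mice (limma adjusted p = 0.0786). It passed without fish oil-fed conventional mouse 1 (0.64, limma adjusted p = 0.00704) or fish oil-fed germ-free mouse 3 (0.47, adjusted p = 0.0291). In germ-free mice the diet change was -0.48 ± 0.20 (limma adjusted p = 0.0501). It was -0.29 and did not pass without fish oil-fed germ-free mouse 3, and it passed on leaving out any of 6 others, with limma adjusted p-values of 0.0232 to 0.047. The status change was 0.36 ± 0.20 with lard (limma adjusted p = 0.248) and -0.58 ± 0.20 with fish oil (adjusted p = 0.0537, unadjusted p = 0.00695). With fish oil it was -0.39 without germ-free mouse 3, and it passed without conventional mouse 1 (-0.76, limma adjusted p = 0.00695) or germ-free mouse 2 (-0.64, adjusted p = 0.0449) or 6 (-0.68, adjusted p = 0.0367). The interaction of 0.94 ± 0.28 passed (limma adjusted p = 0.0412), and leaving out any of 13 of the 24 mice ended that call, with changes of 0.75 to 0.96 and limma adjusted p-values of 0.0502 to 0.0736. These were lard-fed conventional mice 2, 3, 4 and 5, lard-fed germ-free mice 4, 5 and 6, fish oil-fed conventional mice 2, 3, 5 and 6, and fish oil-fed germ-free mice 3 and 5. The call also ended without lard-fed conventional mice 5 and 6 (0.90, limma adjusted p = 0.0522). With mice 2, 4 and 5 of the lard-fed germ-free group left out it ended too (0.94, limma adjusted p = 0.176). The highest value of 7.70 belonged to fish oil-fed germ-free mouse 3, which also had the highest signal of all mice, 6.66 log2, for the neutrophil receptor gene Cxcr2.

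S100a8, one chain of calprotectin, resembled Saa3. Its lowest, median and highest log2 signals were 7.47, 7.94 and 8.70 in lard-fed conventional mice and 6.56, 6.97 and 7.43 in lard-fed germ-free mice. They were 6.29, 6.64 and 7.18 in fish oil-fed conventional mice and 6.03, 6.45 and 7.42 in fish oil-fed germ-free mice. Every lard-fed conventional mouse exceeded every mouse of the other groups. Lard over fish oil was 1.34 ± 0.22 log2 in conventional mice (2.54-fold, 95% interval 1.86 to 3.46, limma adjusted p = 4.14e-05) and 0.46 ± 0.22 in germ-free mice (adjusted p = 0.0823). The change in germ-free mice passed without fish oil-fed germ-free mouse 3 (0.64, limma adjusted p = 0.013). Conventional over germ-free was 1.02 ± 0.22 with lard (2.03-fold, limma adjusted p = 0.00248) and 0.14 with fish oil (95% interval -0.31 to 0.59, adjusted p = 0.746). The interaction of 0.88 ± 0.31 did not pass with all mice (limma adjusted p = 0.0841). Without lard-fed conventional mice 5 and 6, whose S100a8 values were the second lowest and the lowest of their group, it was 1.08 and passed (limma adjusted p = 0.024), as it did without mouse 6 alone, at 0.99 (adjusted p = 0.0384). The diet change in conventional mice was then 1.54 (limma adjusted p = 4.48e-05) and the status change with lard 1.22 (adjusted p = 0.000362), without both mice. With lard-fed germ-free mice 2, 4 and 5 left out, the status change with lard was 1.01 and did not pass (limma adjusted p = 0.065).

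S100a9, the partner chain, went the other way with diet. Its lowest, median and highest log2 signals were 5.74, 5.88 and 6.20 in lard-fed conventional mice and 5.79, 5.90 and 6.15 in lard-fed germ-free mice. They were 6.40, 6.88 and 7.86 in fish oil-fed conventional mice and 6.32, 6.64 and 7.39 in fish oil-fed germ-free mice. All 12 lard-fed mice were below all 12 fish oil-fed mice. S100a9 fell by 1.06 log2 with lard in conventional mice (SE 0.19, limma adjusted p = 9.86e-05) and fell by 0.79 in germ-free mice (SE 0.19, adjusted p = 0.00132). The status change with lard was 0.00 (95% interval -0.38 to 0.39, limma adjusted p = 0.994), and with fish oil it was 0.27 (-0.11 to 0.66, adjusted p = 0.377). The interaction was -0.27 ± 0.26 (limma adjusted p = 0.595). The diet change was -1.02 in conventional mice without lard-fed conventional mice 5 and 6 (limma adjusted p = 0.00113), and -0.69 in germ-free mice with lard-fed germ-free mice 2, 4 and 5 left out (adjusted p = 0.0348). The mean signal of S100a9 was low, at the 29.7 percentile of all genes. The file holds no detection call, and signals near the low end of the scale are compressed, which makes fold changes there smaller.

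**Figure D2:**
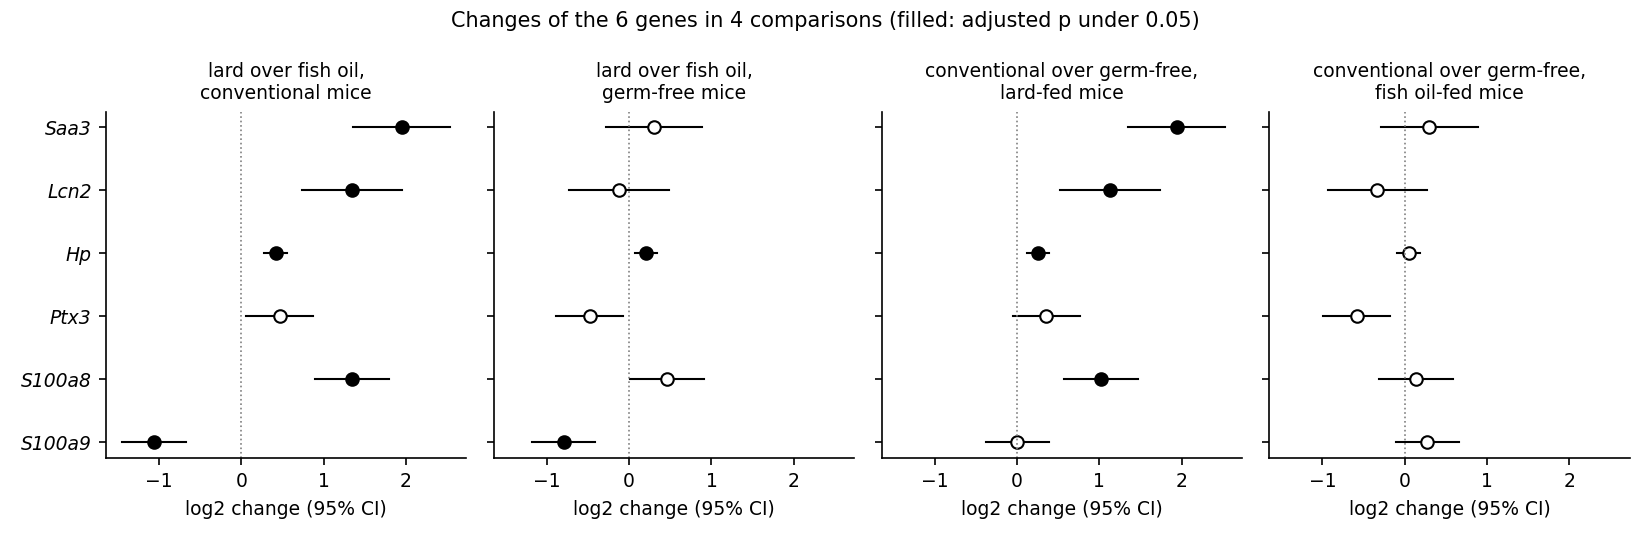
Log2 change (x axis) of each of the 6 genes in the 4 comparisons of groups, with 95% intervals from limma. Saa3, Lcn2, Hp and S100a8 lie above 0 for lard over fish oil in conventional mice and for conventional over germ-free with lard, and S100a9 lies below 0 in both diet comparisons.

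Because calprotectin holds both chains, S100a8 minus S100a9 was taken within each mouse. It was chosen after the values were seen and adds the changes of both genes, so it is a description with no test. The signals of different probe sets are not on one scale of abundance, so the difference is read between groups only. It was 1.62 to 2.83 log2 in lard-fed conventional mice, 0.69 to 1.56 in lard-fed germ-free mice, -1.06 to 0.16 in conventional mice fed fish oil. It was -0.43 to 0.04 when germ-free mice ate fish oil. The lard-fed groups did not overlap with each other or with the fish oil-fed groups. The mean differed by 2.40 for lard over fish oil in conventional mice, by 1.26 in germ-free mice and by 1.01 for conventional over germ-free mice with lard. With fish oil the status difference was -0.13.

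**Figure D3:**
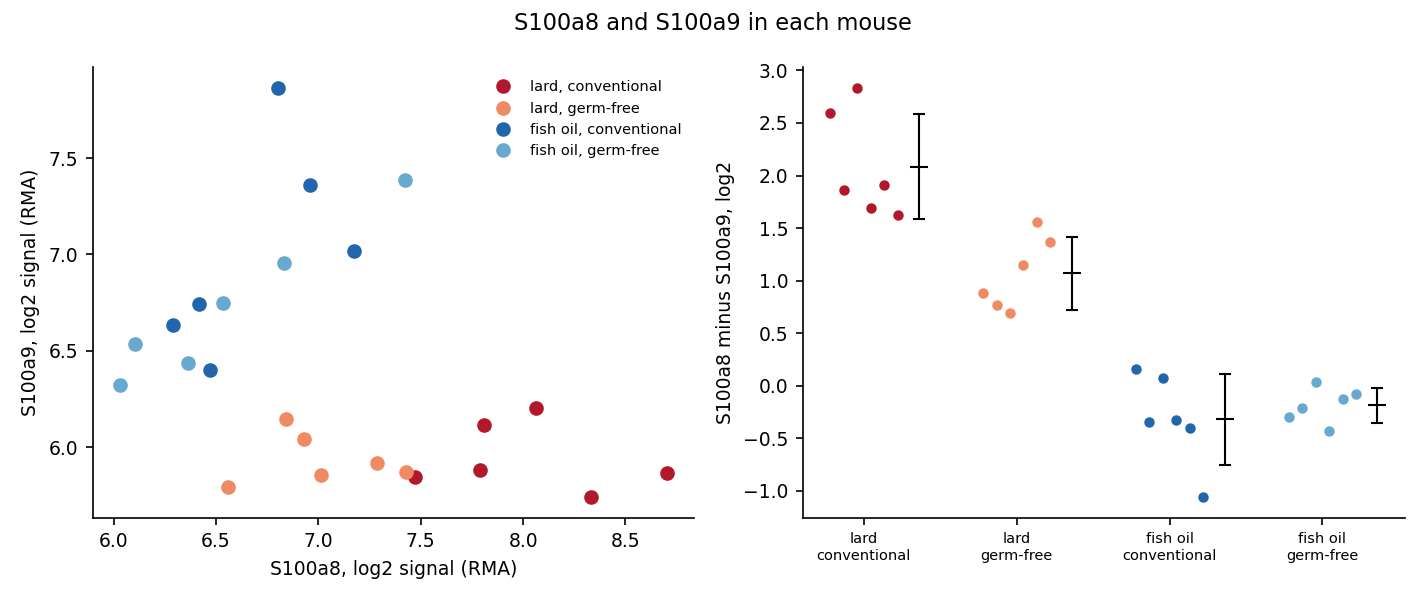
S100a8 against S100a9 log2 signal, 1 point per mouse, coloured by group. Lard-fed mice lie at S100a9 signals of 5.74 to 6.20 with S100a8 from 6.56 to 8.70, and fish oil-fed mice lie at S100a9 signals of 6.32 to 7.86 with S100a8 from 6.03 to 7.42.

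The counts of the gene lists below were not tested against those of all genes. Limma called 31.0% of all genes for diet in conventional mice and 47.5% for diet in germ-free mice. For status it called 16.3% with lard and 12.4% with fish oil, and for the interaction 7.20%. Other acute-phase proteins were measured for 25 of 28 listed genes. With lard in conventional mice, 8 rose and 3 fell relative to fish oil, with a median change of 0.26 log2. The rises included Il1rn, the interleukin 1 receptor antagonist, by 2.16 log2 (limma adjusted p = 4.4e-06), Orm2, an acid glycoprotein, by 1.33 (0.00047), and Lbp, which hands lipopolysaccharide to CD14, by 0.94 (2e-05), while Orm3 changed by -1.36 (0.016). The falls in this list numbered 0 to 3 on leaving out 1 mouse, and 0 without lard-fed conventional mice 5 and 6. Of the serum amyloid A genes beside Saa3, Saa2 rose by 0.26 log2 (limma adjusted p = 0.048) and Saa1 had a change of 0.11 (adjusted p = 0.47). Saa1 and Saa2 are close copies, and their probe sets may not separate them. Orm1 had a change of -0.03 (limma adjusted p = 0.92).

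In germ-free mice 5 of these 25 genes rose with lard and 12 fell. The falls included the fibrinogen chains Fgb (-3.01 log2) and Fgg (-2.49) and the iron hormone hepcidin, Hamp (-2.10), all of which are typical liver products. Liver markers, a list that also holds Fgb and Fgg, moved in the same comparison, 21 of 23 lower with lard. Their part in these changes was not tested. Between conventional and germ-free mice 2 genes rose with lard, Saa2 by 0.42 log2 (limma adjusted p = 0.0057) and Lrg1, a leucine-rich plasma glycoprotein, by 0.37 (0.032). With fish oil 1 rose and 9 fell, among them Fgb (-2.71 log2) and the heme-binding Hpx (-1.46), beside falls of 20 of 23 liver markers. The interaction was positive for 10 genes and negative for 0. A positive interaction was called for 18 of the 23 liver markers, with Fgb and Fgg counted in both lists.

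Of 17 cytokines and receptors that induce the acute phase (of 19 listed), 7 rose and 2 fell with lard in conventional mice, with a median change of 0.09 log2. Tumour necrosis factor, Tnf, rose by 0.65 (limma adjusted p = 5.4e-05) and its receptor Tnfrsf1b by 0.89, the oncostatin M receptor Osmr rose by 0.52, and Il1b fell by 0.52 (adjusted p = 0.042). The falls in this list numbered 0 to 2 on leaving out 1 mouse, and 0 without lard-fed conventional mice 5 and 6. Il6 had a change of 0.09 (limma adjusted p = 0.73). Its group medians were 3.92 to 4.09 log2, low on arrays whose signals ran from 2.19 to 14.59. In germ-free mice 6 rose and 5 fell, with Tnf up by 0.36 log2 (limma adjusted p = 0.0089) and Il1a and Il1b lower, at -1.12 and -0.77. There, too, Il6 did not pass, at -0.29 (limma adjusted p = 0.14). Between conventional and germ-free mice 2 rose and 2 fell with lard, and 0 rose and 3 fell with fish oil. Il1a had a conventional over germ-free change of -0.92 log2 with fish oil, and it was the 1 gene of this list with a called interaction, 1.18 (limma adjusted p = 0.0027).

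Among 16 transcription factors and feedback genes of the response (of 17 listed), 8 rose and 3 fell with lard in conventional mice. Bcl3, an NF-kappaB cofactor, rose by 0.76 log2, Nfkb2 by 0.45 and Stat3 by 0.40 (limma adjusted p = 3.8e-05). Of the C/EBP genes, Cebpa fell by 0.81, Cebpd fell by 0.36 (limma adjusted p = 0.023) and Cebpb had a change of -0.09 (adjusted p = 0.3). Socs3, the feedback inhibitor induced by STAT3, had a change of -0.07 (limma adjusted p = 0.76). In germ-free mice 5 rose and 5 fell, with log2 changes of 0.35 for Stat3 and -0.96 for Cebpd. With lard, 1 was higher and 2 were lower in conventional than in germ-free mice, and with fish oil 0 were higher and 4 lower. The interaction was positive for 4, among them Bcl3 (0.77), Cebpd (0.60) and Nfkbia, an NF-kappaB inhibitor (0.58), and negative for 1.

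Receptors and binding partners of the 6 proteins were measured for 20 of 23 genes. With lard 9 rose and 2 fell in conventional mice (31.0% of all genes called), and 7 rose and 4 fell in germ-free mice (47.5%). The C1q chains, to which pentraxins bind, rose in conventional mice by 1.20 log2 (C1qb), 0.99 (C1qc) and 0.65 (C1qa), and heme oxygenase, Hmox1, rose by 0.82 (limma adjusted p = 0.0061). Cd163, the receptor for haptoglobin with haemoglobin, fell by 0.56 in conventional mice (limma adjusted p = 0.0497) and fell by 0.67 in germ-free mice (adjusted p = 0.013). Tlr4, a receptor of calprotectin, had a change of 0.20 in conventional mice (limma adjusted p = 0.13) and rose by 0.28 in germ-free mice (adjusted p = 0.024). Slc22a17, described as an Lcn2 receptor, had a change of -0.20 in conventional mice (limma adjusted p = 0.051) and fell by 0.29 in germ-free mice (adjusted p = 0.0037). Between conventional and germ-free mice 1 gene of the list fell with each diet and none rose, namely Lrp1 with lard (-0.36 log2) and Hmox1 with fish oil (-0.73).

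Of 13 other S100 genes, 1 rose with lard in conventional mice, S100a4 by 0.91 log2, and 2 fell, S100a1 (-0.82) and S100a13 (-0.63). In germ-free mice 0 rose and 6 fell. Conventional over germ-free with lard was positive for 3, S100a16 (0.63), S100a13 (0.50) and S100a3 (0.20), and with fish oil limma called 0 of the 13, with 2 at an unadjusted p under 0.05. Among 18 iron and heme genes (of 19), 6 rose and 6 fell with lard in conventional mice (31.0% of all genes called). In germ-free mice 6 rose and 3 fell (47.5% of all genes called). With lard 4 were lower in conventional than in germ-free mice, including the iron exporter Slc40a1 (-0.75 log2) and transferrin, Trf (-0.41), and 0 were higher. With fish oil 1 was higher and 2 were lower in conventional mice. The interaction was positive for 1 iron gene and negative for 3.

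Macrophage markers were higher with lard for 14 of 15 genes in conventional mice and for 11 in germ-free mice, with median changes of 1.19 and 1.09 log2. The macrophage marker mean was 10.24 to 11.25 in lard-fed conventional and 10.60 to 11.29 in lard-fed germ-free mice. In the fish oil-fed groups it was 9.47 to 10.09 for conventional and 9.88 to 10.44 for germ-free mice. The part of macrophages in the diet differences was not tested. On lard, 1 of the 15 markers was higher in conventional than in germ-free mice, 2 were lower and 12 did not pass, and the median of the marker mean was 10.51 in conventional and 10.92 in germ-free mice. With lard-fed conventional mice 5 and 6 left out, 10 markers were lower. Saa3, Lcn2 and S100a8 were higher in the conventional mice of this comparison, and the part of macrophages in that was not tested. Within the lard-fed conventional group the mice took the same order for Saa3 and S100a8, from highest to lowest mice 3, 1, 2, 4, 5 and 6. Pearson's r of Saa3 and S100a8 was 0.99 in that group of 6 mice, the highest within-group value among the 15 pairs of the 6 genes. Within-group values of other pairs went down to -0.82, and the within-group values were not tested. For Saa3 and S100a8, r was lower in the other groups. It was 0.31 in lard-fed germ-free, 0.03 in fish oil-fed conventional and 0.65 in fish oil-fed germ-free mice.

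**Figure D4:**
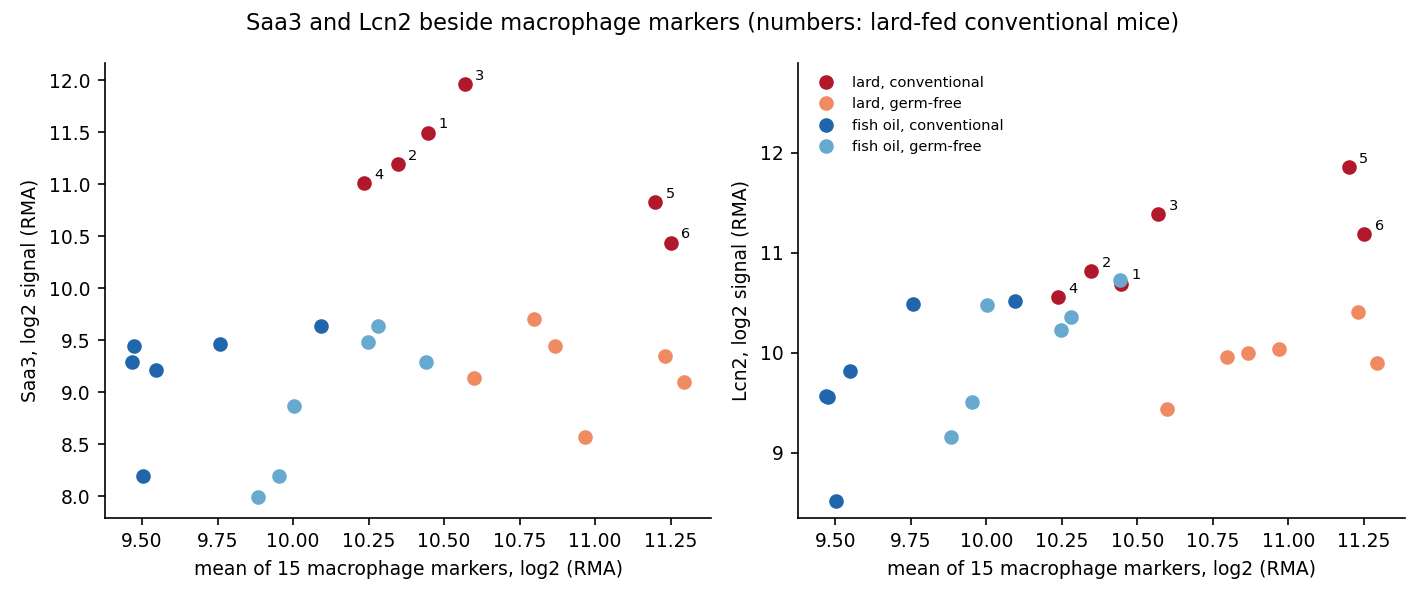
Log2 signal of Saa3 and Lcn2 (y axes) against the mean of 15 macrophage markers (x axis), 1 point per mouse. Lard-fed germ-free mice lie at marker means of 10.60 to 11.29 with Saa3 from 8.56 to 9.70, and lard-fed conventional mice lie at 10.24 to 11.25 with Saa3 from 10.44 to 11.97.

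Neutrophils are a rich source of calprotectin. Of 23 listed neutrophil markers 21 were measured, and their mean was 5.81 to 6.00 log2 in lard-fed conventional, 5.74 to 5.85 in lard-fed germ-free, 5.81 to 6.10 in fish oil-fed conventional and, for germ-free mice fed fish oil, 5.89 to 6.29. Ly6g, the defining surface marker, had group medians of 4.41 to 4.60 log2. With lard in conventional mice, 2 markers rose, Il1r2 (0.49 log2) and Csf3r (0.28), 3 fell, Cxcr2, Elane (-0.30) and Stfa3 (-0.22, named after its value was seen), and 16 did not pass. Without lard-fed conventional mice 5 and 6 the counts were 1 and 0. In germ-free mice 0 rose and 11 fell, among them Cxcr2, Retnlg (-0.62), Hdc (-0.45) and Prtn3 (-0.43), and 4 fell with lard-fed germ-free mice 2, 4 and 5 left out. Cxcr2, the chemokine receptor of mature neutrophils, fell with lard, with log2 changes of -0.62 in conventional mice (limma adjusted p = 0.034) and -0.84 in germ-free mice (adjusted p = 0.0036). With all mice, S100a9 and Cxcr2 were both lower with lard in each diet comparison. The Cxcr2 call in conventional mice ended without lard-fed conventional mice 5 and 6. Cxcr2 signals were low, with group medians of 4.85 to 5.47 log2 and a mean at the 12.5 percentile of all genes. The part of neutrophils in the S100a9 difference was not tested. Adipocyte markers were lower with lard for 10 of 12 genes in conventional and 8 of 12 in germ-free mice, and mesothelial markers for 10 and 8 of 12.

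Between mice of the same group, most of the 6 genes varied more than other genes. The within-group SD of Lcn2, Saa3, S100a8, Ptx3 and S100a9 stood at the 99.1, 99.0, 97.7, 96.8 and 96.0 percentile of all genes, and that of Hp at the 17.3 percentile. The deviations from group means were correlated over the 24 mice for all 15 pairs of genes, and 0 pairs passed after Benjamini-Hochberg adjustment of permutation p-values, for Pearson or Spearman correlation. At an unadjusted permutation p under 0.05 there were 4 pairs by Pearson and 5 by Spearman correlation. A total of 12 pairs were positive. Lcn2 and Ptx3 had r = 0.599 (permutation p = 0.0148, adjusted 0.0686), and Saa3 and S100a8 had r = 0.568 and rho = 0.631 (adjusted permutation p of rho 0.0552). S100a8 and S100a9 differed in the direction of their diet change in conventional mice. Their deviations, pooled over the 24 mice, had a positive r of 0.505 (permutation p = 0.0183, rho = 0.544). Group by group, r of S100a8 and S100a9 was 0.97 (fish oil, germ-free), 0.59 (fish oil, conventional), -0.05 (lard, germ-free) and -0.19 (lard, conventional). Each of these r values rests on 6 mice, and their difference between diets was not tested. The SD of S100a9 was 0.54 and 0.39 in fish oil-fed conventional and germ-free mice. It was 0.18 and 0.13 in lard-fed conventional and germ-free mice. Saa3 and Lcn2 had r = 0.560, which was 0.298 without the 2 mice farthest from the median of Saa3.

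The named genes most like each of the 6 over the 24 mice, by Pearson's r of log2 signals, are given as a description, since group differences and shared arrays enter the values. Clec9a, a receptor of cross-presenting dendritic cells, was most like both Saa3 (r = 0.910) and S100a8 (r = 0.901). Clec9a was 0.93 log2 higher with lard in conventional mice and 0.72 higher in conventional than in germ-free mice with lard. Lcn2 was most like Ostc (r = 0.883), and next to Timp1 (0.870), an inhibitor of matrix metalloproteinases that also stood second by deviations from group means (0.890). Hp was most like Lrg1 (r = 0.901). Ptx3 was most like Plaur, the urokinase receptor (r = 0.779, and 0.874 by deviations). Il6 stood among its 5 nearest genes (0.724), at low signals with group medians of 3.92 to 4.09 log2. S100a9 was most like Ccdc57 (r = 0.877) and next Cxcr2 (0.873), and Cxcr2 stood first by deviations (0.816).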

How the data were processed

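The authors deposited log2 signals made with RMA, as the submitters' processing notes name it. This method subtracts background, matches the quantiles of all arrays and summarises probes, so arrays are brought to like distributions before any comparison. The sources used here give neither its version nor scan batches. Of 35556 probe sets, 21789 had 1 gene symbol in the platform annotation, 1621 several and 12146 none, and 21698 of the 21789 were found by Entrez ID in a RefSeq table (GRCm38.p6). Per gene the probe set with the highest mean was kept, which left 19938 genes. Arrays of the same group correlated at 0.979 to 0.995, and 0 pairs held identical values.

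The 4 group means were fitted to all 24 arrays with limma 3.58.1 under R 4.3.3 (lmFit, eBayes), and 5 contrasts were tested two-sided. Benjamini-Hochberg adjustment ran over all genes, calls were made at an adjusted p under 0.05, and limma gave all adjusted p-values of genes. The correlations were tested with 100000 permutations (scipy 1.17.1). The fit was tested on simulated data. The genes and the 18 gene lists were chosen with earlier results of these data known. Genes named are the 6, up to 4 called genes with the largest changes per list and comparison, a panel of 14 inducers, factors, receptors and related proteins, and the 5 most alike genes of each of the 6. Alternatives were median centring, repeated quantile normalization, a filter under the 40th percentile, the mean of probe sets, trended robust eBayes, fits of only the groups compared, mouse number as a replicate block, leaving out each mouse or the mice that stood apart, and liver markers as a covariate. Median centring of the correlations was chosen after seeing the data.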

Additional observations from a re-analysis of the deposited data

Results flagged for a closer look

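Each gene and each marker mean was checked for a mouse far from the other 5 of its group, and 6 of 72 sets of 6 values had one, where chance gives about 1 in 20. Saa3 was 8.19 log2 in fish oil-fed conventional mouse 6, against 9.21 in the next mouse. The same mouse had the highest liver marker mean of its group, 8.15 (next 7.17), and the highest intestinal epithelium marker mean, 6.61 (next 6.50). Lard-fed germ-free mouse 4 had an intestinal epithelium marker mean of 9.41 (next 6.98). Fish oil-fed conventional mouse 4 had a B cell marker mean of 6.71 (next 6.42), and fish oil-fed germ-free mouse 6 an epididymis marker mean of 6.13 (next 5.70).

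With all mice, the effect of bacterial status differed between lard and fish oil, by the interaction in limma, for Saa3 (1.64 log2, adjusted p = 0.0149), Lcn2 (1.46, adjusted p = 0.0343) and Ptx3 (0.94, adjusted p = 0.0412). Leaving out any of 11 of the 24 mice ended the call of Lcn2, and any of 13 that of Ptx3. Without lard-fed germ-free mice 2, 4 and 5, 0 of the 6 genes had a called interaction. Among other acute-phase genes the interaction was 3.29 for Fgb, 2.86 for Fgg, 2.37 for Hamp and 1.95 for Hpx. Among inducers and factors it was 1.18 for Il1a, 0.77 for Bcl3, 0.60 for Cebpd, 0.58 for Nfkbia and 0.42 for Cebpe. Iron genes had negative values of -0.46 for Aco1, -0.53 for Slc11a2 and -0.45 for Trf. Among cell markers it was 0.49 for Csf3r, 0.37 for Lyz2, -0.34 for Plin1, -0.72 for Pdgfra, 3.45 for Ahsg, 4.33 for Alb, 4.11 for Mup3, 5.42 for Serpina1c and 3.15 for Fabp1. Limma adjusted p-values of these genes were between 0.000653 and 0.0448. Of 23 liver markers, 18 had a positive interaction, Fgb and Fgg among them, and the part of liver RNA in these values was not tested.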

How the results depend on the processing

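Leaving out 1 mouse at a time changed a call or a sign in 43 of 720 gene results, and the other alternatives in 28 of 284. The range of genes called was 5319 to 6683 (main 6178) for diet in conventional mice, 8067 to 9769 (9468) for diet in germ-free mice, 2253 to 4302 (3240) for status with lard, 1761 to 2752 (2464) for status with fish oil and 861 to 2070 (1435) for the interaction. The 6 genes gave 5 to 6, 2 to 3, 4 to 4, 0 to 1 and 1 to 4 calls in that order. Without lard-fed germ-free mice 2, 4 and 5, which leaves 3 mice, genes called were 5278 for diet in germ-free mice, 177 for status with lard and 225 for the interaction, and of the 6 genes 1 was called for status with lard and 0 for the interaction. Without lard-fed conventional mice 5 and 6 there were 5079 calls for status with lard and 2710 for the interaction. Fits of only the groups compared called Ptx3 for diet in germ-free mice (-0.48, limma adjusted p = 0.0484) and for status with lard (0.36, adjusted p = 0.0191). Other list counts that moved by over 1.5 times without lard-fed conventional mice 5 and 6 included, for diet in conventional mice, iron and heme genes (3 higher and 3 lower), acute-phase genes lower (0) and inducers lower (0), and for status with lard acute-phase genes higher (5), iron genes lower (8) and receptors lower (5). Without lard-fed germ-free mice 2, 4 and 5, status with lard had 0 calls in the lists of acute-phase, inducer, factor, receptor, S100, iron, neutrophil and macrophage genes. The interaction then was positive for 8 acute-phase genes, 1 iron gene and 0 factors, and negative for 0 iron genes. The filter on low values took S100a9 and Ptx3 out and left 1 call among the 6 for diet in germ-free mice.

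With the liver marker mean as a covariate, which was higher in each fish oil-fed germ-free mouse than in all mice of the other groups, 5054 genes were called for diet in germ-free mice and 1625 for status with fish oil. For status with fish oil 2 of the 6 were then called, Lcn2 at -1.58 log2 (limma adjusted p = 0.0156) and Ptx3 at -1.18 (0.0186). Signs turned for Saa3, -0.85 for diet in germ-free mice and -0.77 for status with fish oil, and for status with fish oil also in Hp (-0.0048) and S100a8 (-0.20). In germ-free mice the diet changes of Hp, 0.15 (adjusted p = 0.331), and S100a9, -0.89 (0.0512), did not pass with it, and those of Lcn2, -1.47 (0.013), and Ptx3, -1.13 (0.0143), did. The cause was not tested. Values near 0 turned sign for Hp with fish oil (-0.0075 with repeated quantile normalization) and for Lcn2 for diet in germ-free mice (-0.30 to 0.011 over single mice left out, the positive value without fish oil-fed germ-free mouse 3). S100a9 for status with lard was -0.030 after centring, -0.023 with repeated quantile normalization, -0.095 without germ-free mice 2, 4 and 5, and -0.048 to 0.045 over single mice left out.

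Mouse numbers did not pair the groups (correlations of same-numbered mice -0.50 to 0.35, 9 of 36 over 0.1). As a replicate block they gave 6020, 9253, 2968, 2294 and 1131 genes and 5, 2, 4, 0 and 2 of the 6 genes in the order above, the call lost being the interaction of Ptx3 (limma adjusted p = 0.0506), which repeated quantile normalization also ended (0.86, adjusted p = 0.0747). Correlations past the threshold were 0 with and without median centring. Centring each array on its median changed the split of higher and lower calls to 2641 and 4271 (main 3076 and 3102) for diet in conventional mice, to 1388 and 1913 (1749 and 1491) for status with lard, to 1935 and 850 (1425 and 1039) for status with fish oil and to 365 and 1422 (561 and 874) for the interaction. The filter on low values gave 3794 and 3260 (main 4072 and 5396) for diet in germ-free mice.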
